A study of Homo sapiens with 4 samples.

Results

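The genes described here are 8 members of the BCL2 family: BCL2, BCL2L1, BCL2A1, BCL2L14, MCL1, BAX, BIK and PMAIP1. They were chosen by name, as each feature of the array (a spotted probe) whose platform gene symbol is one of these, which gave 32 of the 15154 features. Their transcripts were measured in OCI-Ly10, an established cell line from a diffuse large B-cell lymphoma (activated B-cell subtype), after a siRNA pool had been used to lower MYC. Each of 4 arrays carried 2 channels: Cy5-labelled RNA of cells electroporated with 4 uM of the pool, and Cy3-labelled RNA of control cells. The controls had received a nonspecific siRNA against Renilla luciferase (arrays at 8 h and 24 h), or had been electroporated in the same buffer without any siRNA (arrays at 6 h and 24 h). The cells on both channels had thus been electroporated, and each pairing of control and time was 1 array. Values are log2 ratios of MYC siRNA over control, so that a negative value stands for less transcript with MYC siRNA; the scale is read as log2 and the direction is likely, from the labelling of MYC siRNA with Cy5 and from MYC itself, below 0 in 13 of its 14 feature values.

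Proteins of the BCL2 family decide whether the outer membrane of the mitochondrion stays closed. BCL2, BCL-XL (the main product of BCL2L1), MCL1 and BFL-1 (the product of BCL2A1) keep it closed by binding their relatives. BAX opens it and lets cytochrome c out, which starts the caspase cascade, and BH3-only proteins such as BIK and NOXA (the product of PMAIP1) promote this by occupying the survival proteins. BCL2L14 encodes BCL-G, a relative without an agreed role in this balance. In activated B-cell type lymphoma BCL2 and BCL2A1 are known for high expression, and MYC is known as a factor that can sensitise cells to death through this family.

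MYC and its partner MAX bind the E-box CACGTG, so the bases before the start of the members were searched for it. RefSeq promoters of build GRCh38.p14 were at hand for 6 of the 8 members (8 start sites), and the 250 bases before each start were read on the gene's strand, 5′ to 3′; the motif reads the same on both strands. BAX alone of these 6 held the motif, 4 times, at 138, 93, 45 and 14 bases before the start. Of 35116 RefSeq promoters of this length, 6.34% held the motif at least once and 0.0142% (5 promoters) 4 times or more. The stretch of BAX is shown for these sites, in capitals, and that of BCL2A1 and of the upstream start of BCL2L14 because these genes rose and hold none in this window. A match is a description of letters and not a binding site.
BAX, chr19:48954625-48954874, plus strand: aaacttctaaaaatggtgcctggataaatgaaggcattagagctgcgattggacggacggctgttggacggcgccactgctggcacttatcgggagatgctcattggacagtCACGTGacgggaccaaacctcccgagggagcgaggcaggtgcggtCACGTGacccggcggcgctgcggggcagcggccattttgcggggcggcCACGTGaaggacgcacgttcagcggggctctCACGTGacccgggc
BCL2A1, chr15:79971197-79971446, minus strand: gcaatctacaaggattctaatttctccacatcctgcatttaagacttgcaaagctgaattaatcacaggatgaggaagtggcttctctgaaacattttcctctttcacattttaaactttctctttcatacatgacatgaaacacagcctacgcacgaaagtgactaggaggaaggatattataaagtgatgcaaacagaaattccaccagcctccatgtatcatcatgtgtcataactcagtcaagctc
BCL2L14, chr12:12070689-12070938, plus strand: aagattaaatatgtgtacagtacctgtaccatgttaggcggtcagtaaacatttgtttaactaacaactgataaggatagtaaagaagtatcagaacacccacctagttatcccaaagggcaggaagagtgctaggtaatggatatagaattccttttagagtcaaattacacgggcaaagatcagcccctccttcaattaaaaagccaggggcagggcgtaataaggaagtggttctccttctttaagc

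Of the 32 features, 28 had a value on each array and 4 had empty cells (1 each of BCL2, BCL2L1, BCL2A1 and BCL2L14). Over all features, 12028 to 12784 values were present per array, the array medians lay between -0.034 and 0.014, and the standard deviation was 0.447 on the 24 h array against no siRNA and 0.288 to 0.327 on the others. MYC itself averaged -0.89 ± 0.39 (SD, n = 4; limma adjusted p = 0.0146). With the 6 h array left out it averaged -0.77 (limma adjusted p = 0.053), in a fit that called 0 of all 6798 rows. It passed with each other array left out in turn (limma adjusted p from 0.0261 to 0.039). Among 7 B-cell markers 6 had gene rows (values on all arrays), but so had 6 of 6 T cell markers, and ratios hold no levels, so the line's identity could not be checked here. Of the markers measured, 2 B-cell genes rose, and 0 of the activated B-cell type, T cell, monocyte and erythroid genes passed. The medians of the mean log2 ratio were 0.15 for 6 B-cell, 0.09 for 6 T cell and 0.004 for 2 erythroid genes, and the 1 monocyte gene measured stood at 0.09. The 3 markers of the activated B-cell type had a median of -0.10. By array their median was 0.08 (8 h) and 0.03 (24 h) against control siRNA, and 0.15 (6 h) and -0.39 (24 h) against no siRNA.

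BCL2A1, BCL2L14 and BIK rose with MYC siRNA, and none of the 8 genes fell past the test. With the features of a gene averaged on each array, limma's test of the mean log2 ratio against 0 called 3 of 8 members at an adjusted p under 0.05, all 3 higher, or 37.5%. The 6798 rows tested held named genes and, as single rows, features without a gene symbol. Of these rows 15.8% were called (5.56% higher and 10.2% lower). BCL2A1 stood at 127%, BCL2L14 at 130% and BIK at 126% of control. BCL2, MCL1 and BAX averaged within 0.06 of 0, and BCL2L1 and PMAIP1 lay below 0 without passing. The median over the 8 was -0.02, against -0.003 over all rows.

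**Figure D1:**
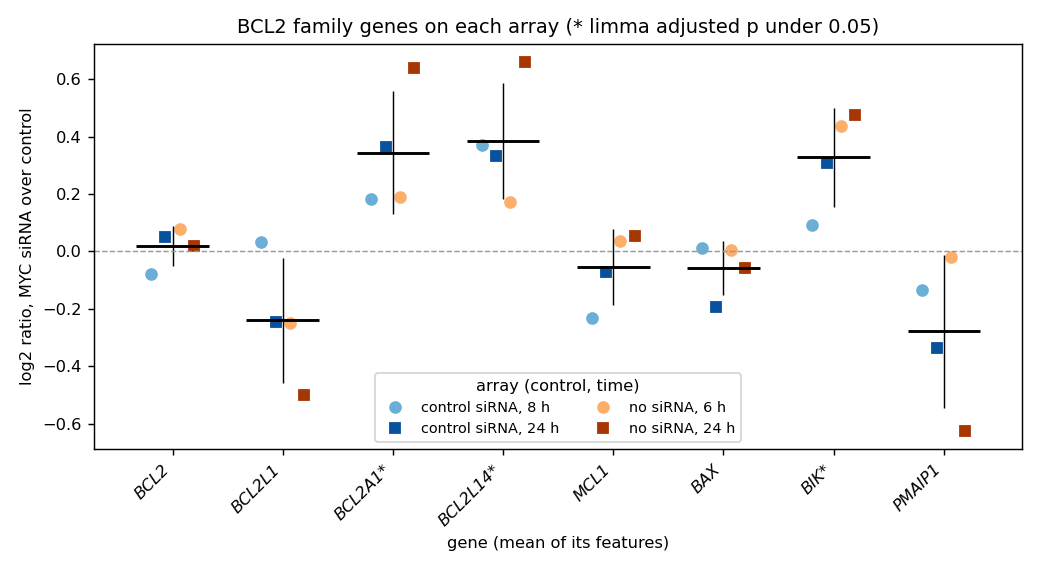
Log2 ratio of MYC siRNA over control (y axis) for each of the 8 genes (x axis), as the mean of its features; circles are the early arrays and squares the 24 h arrays, blue against control siRNA and orange to brown against no siRNA, with the mean (bar) and SD (line) over 4 arrays. All 4 arrays lie above 0 for BCL2A1, BCL2L14 and BIK, and the 24 h array against no siRNA holds the highest value of these 3 genes and the lowest of BCL2L1 and PMAIP1.

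Among the survival genes, BCL2A1 was the one that rose. Its gene values were 0.18 (8 h) and 0.36 (24 h) against control siRNA, and 0.19 (6 h) and 0.64 (24 h) against no siRNA. Both 24 h values were thus above both early ones, but the difference by time did not pass (limma adjusted p = 0.64). The mean was 0.34 ± 0.21 (SD, n = 4; limma adjusted p = 0.0479). Each of its 19 feature values was above 0. The 4 complete features averaged 0.29, 0.34, 0.37 and 0.37, and 3 of them passed limma's test over single features (adjusted p = 0.0413, 0.0414 and 0.0485); feature 24637_1, which stood at 0.01 at 8 h, did not (adjusted p = 0.0957). The fifth feature, 28638_1, was empty on the 24 h array against no siRNA and had values of 0.10, 0.31 and 0.34 on the others. The standard deviation between the means of the 4 complete features was 0.037, against a median of 0.17 over 1837 genes with at least 2 such features. Of the 6 pairs of these features 0 differed (smallest limma adjusted p = 0.637; 0 had an unadjusted p under 0.05).

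BCL2L1, the BCL-XL gene, lay below 0 on 3 arrays. Its values were 0.03 and -0.25 against control siRNA (8 h and 24 h), and -0.25 and -0.50 against no siRNA (6 h and 24 h). The mean of -0.24 ± 0.22 (SD, n = 4) did not pass (limma adjusted p = 0.125; interval at 95% from -0.47 to -0.01 before adjustment). Feature 16454_1 was below 0 on all 4 arrays (-0.07, -0.37, -0.25 and -0.61; mean -0.33, adjusted p = 0.0582). Feature 24267_1 was empty at 6 h and read 0.14, -0.12 and -0.39 on the other arrays. Leaving out the 24 h no siRNA array gave a gene mean of -0.15.

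MCL1, which encodes a survival protein of short half-life, did not pass as a gene. Its values of -0.23, -0.07, 0.04 and 0.05 (8 h and 24 h against control siRNA, then 6 h and 24 h against no siRNA) averaged -0.05 ± 0.13 (SD, n = 4; limma adjusted p = 0.691). The 95% interval ran from -0.25 to 0.14. It had 6 complete features, whose means spread from -0.32 to 0.17, with a standard deviation of 0.17 that was close to the median over genes (0.17). Feature 26351_1 was below 0 on each array (-0.54, -0.34, -0.28 and -0.12) and passed by itself (mean -0.32, limma adjusted p = 0.0496). Feature 16466_1 was at 0.26, 0.35, -0.07 and 0.13 (mean 0.17, adjusted p = 0.25). Another pair, 30120_1 and 30494_1, were below 0 against control siRNA (-0.34 and -0.06 for 30120_1, -0.39 and -0.06 for 30494_1) and above 0 against no siRNA (0.32 and 0.36, and 0.23 and 0.10). Features 36123_1 and 27051_1 averaged -0.13 and -0.08. Of 15 pairs of MCL1 features, 0 differed at an adjusted p under 0.05 (limma; 3 had an unadjusted p under 0.05).

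BCL2 itself showed features that went opposite ways. The gene mean was 0.02 ± 0.07 (SD, n = 4; limma adjusted p = 0.89), with values of -0.08 (8 h) and 0.05 (24 h) where control siRNA was the reference, and of 0.08 (6 h) and 0.02 (24 h) where it was no siRNA. Its 95% interval ran from -0.17 to 0.20. Feature 31826_1 read 0.28, 0.30, 0.41 and 0.88 in that order of arrays (mean 0.47, limma adjusted p = 0.024). Feature 16789_1 read -0.53, -0.17, -0.20 and -0.46 (mean -0.34, adjusted p = 0.0434). The first was thus higher and the second lower on every array, and the difference of the second minus the first, -0.81 (-0.81, -0.47, -0.61 and -1.34 by array), passed the test of the difference itself (limma adjusted p = 0.0402).

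Between these extremes lay 4 BCL2 features that did not pass. Feature 17646_1 stayed within 0.06 of 0 on each array (-0.05, 0.01, -0.01 and -0.06). Feature 24367_1 was at -0.24, 0.10, 0.11 and -0.13, and 28859_1 at -0.11, 0.34, 0.04 and -0.04. Feature 19332_1 read 0.19, -0.27, 0.29 and 0.41, below 0 on the 24 h array against control siRNA alone. The seventh, 34107_1, was empty against control siRNA and had -0.09 (6 h) and -0.47 (24 h) against no siRNA. The platform annotation lists the same transcript for all 7 features, and probe sequences were not used here, so which exon each reads is unknown.

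**Figure D2:**
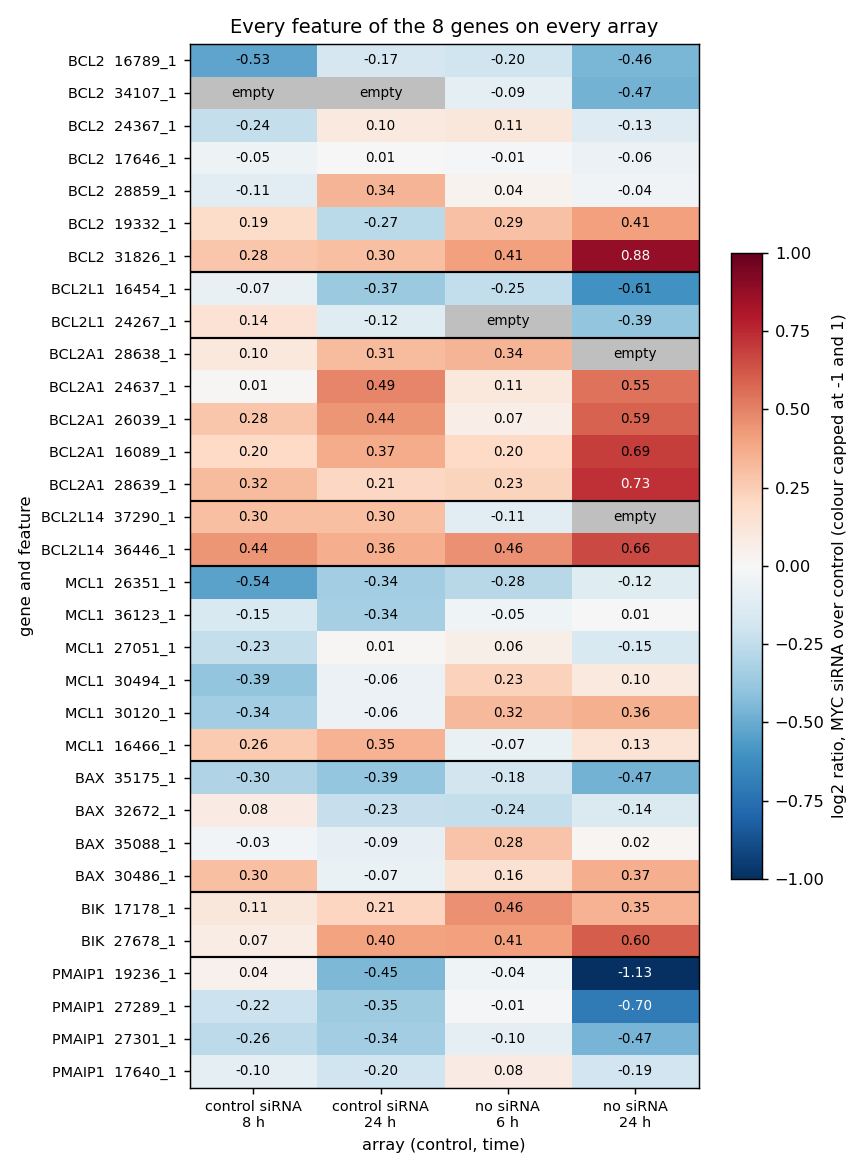
Log2 ratio of MYC siRNA over control (colour, and the number in each cell) for each of the 32 features (rows, grouped by gene and ordered by mean) on each of the 4 arrays (columns); grey cells are empty. BCL2 runs from 16789_1, below 0 on all arrays, to 31826_1, above 0 on all arrays, while all 19 values of BCL2A1 and all 8 of BIK lie above 0.

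Such disagreement was not rare on these arrays. Over the 6622 pairs of complete features that share 1 symbol, 7.23% differed at an adjusted p under 0.05 (limma), and over the 49 pairs of the members, 2 did (4.08%): the BCL2 pair above and a BAX pair. Unadjusted p was under 0.05 for 30.6% of the member pairs and 32.2% of all pairs. For BCL2 this was so for 9 of 15 pairs, each with 16789_1 or 31826_1. The standard deviation between the 6 BCL2 feature means was 0.27, exceeded by 29 of 174 genes with at least 5 complete features, whose median was 0.20. Pairs that share a feature are not independent, so these shares describe the genes. The BCL2 difference did not pass with any 1 array left out, when 0 of all 6622 pairs passed: it was -0.81 and -0.92 with the control siRNA arrays of 8 h and 24 h left out in turn, and -0.87 and -0.63 with the no siRNA arrays of 6 h and 24 h left out (limma adjusted p from 0.066 to 0.107).

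**Figure D3:**
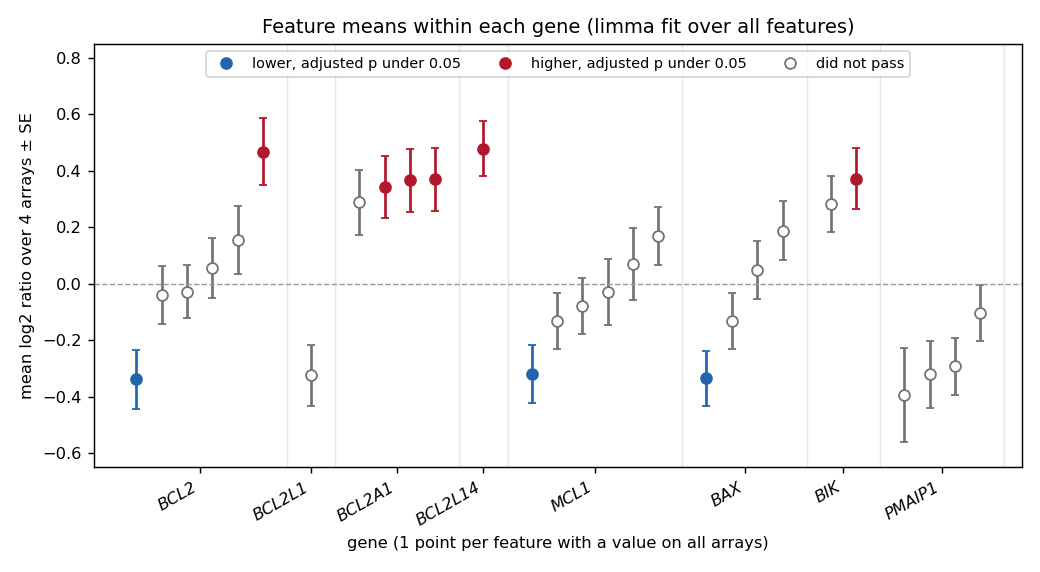
Mean log2 ratio over the 4 arrays with its standard error (y axis) for each of the 28 complete features, grouped by gene (x axis); filled points passed limma's test over all features, blue lower and red higher. BCL2 has points of both colours, BCL2A1 features lie between 0.29 and 0.37, and the PMAIP1 features all lie below 0 without passing.

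In all, 9 of the 28 complete features passed, 3 lower and 6 higher, or 32.1% against 19.4% of all 10161 features (7.09% higher and 12.3% lower). Of the 28, 6 were below 0 and 8 above 0 on all 4 arrays; over all complete features these shares were 24.6% and 19.6%. The 3 lower were 1 feature each of BCL2, MCL1 and BAX. The 6 higher were 31826_1 of BCL2, 3 of BCL2A1, and 1 each of BCL2L14 and BIK. With 1 array left out, 3 (without 8 h) and 2 (without 24 h) passed of the arrays against control siRNA, and 1 (without 6 h) and 0 (without 24 h) of those against no siRNA. Over all features the share called in these fits fell to 12.3%, 7.74%, 6.52% and 2.34%. Feature 36446_1 of BCL2L14 was called in the first 3 of these, and 31826_1 of BCL2 in the first 2.

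BAX, whose protein forms the pore, did not pass as a gene. Its values were 0.01 and -0.19 against control siRNA (8 h and 24 h) and 0.004 and -0.06 against no siRNA (6 h and 24 h), with a mean of -0.06 ± 0.09 (SD, n = 4; limma adjusted p = 0.65). The 95% interval ran from -0.25 to 0.13. Feature 35175_1 was below 0 on each array (-0.30, -0.39, -0.18 and -0.47) and passed (mean -0.34, adjusted p = 0.0377). Feature 30486_1 was at 0.30, -0.07, 0.16 and 0.37 (mean 0.19, adjusted p = 0.21). This pair differed by 0.52 (0.60, 0.32, 0.34 and 0.84 by array; limma adjusted p = 0.0471). With 1 array left out the difference was 0.50, 0.59, 0.58 and 0.42 in the same order, and did not pass (adjusted p from 0.094 to 0.132). Features 32672_1 and 35088_1 averaged -0.13 and 0.05.

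The BAX promoter printed above belongs to a small class. Of measured genes with a RefSeq promoter, 9 held CACGTG at least 3 times in these 250 bases, BAX among them. Of these 2 fell and 0 rose. Their median log2 ratio of -0.06 is the value of BAX itself, the middle gene of the 9. At least 1 copy was found for 384 genes, of which 12.5% fell and 3.91% rose (median -0.065). No copy was found for 2855 genes, of which 9.67% fell and 5.57% rose (median -0.0065). These shares are given as a description, without a test.

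BIK and PMAIP1, the BH3-only genes of the set, lay on opposite sides of 0. BIK, whose protein acts at the endoplasmic reticulum and on BCL-XL, had values of 0.09 and 0.31 against control siRNA (8 h and 24 h) and 0.44 and 0.48 against no siRNA (6 h and 24 h). The 8 h array was the lowest and all 4 were above 0. The mean was 0.33 ± 0.17 (SD, n = 4; limma adjusted p = 0.0452). Its features agreed: 27678_1 read 0.07, 0.40, 0.41 and 0.60 (mean 0.37, adjusted p = 0.0377) and 17178_1 read 0.11, 0.21, 0.46 and 0.35 (mean 0.28, adjusted p = 0.0697).

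PMAIP1, the NOXA gene, had values of -0.13 (8 h) and -0.34 (24 h) against control siRNA, and -0.02 (6 h) and -0.62 (24 h) against no siRNA. Both 24 h values lay below both early ones, but the difference by time did not pass (limma adjusted p = 0.48). The mean of -0.28 ± 0.27 (SD, n = 4) did not pass (limma adjusted p = 0.107; 95% interval -0.53 to -0.03 before adjustment). Of its 16 feature values 14 were below 0. The 4 feature means were -0.40 (19236_1), -0.32 (27289_1), -0.29 (27301_1) and -0.10 (17640_1), and 0 of 4 passed (adjusted p from 0.0633 to 0.463). Feature 19236_1 ranged from 0.04 at 8 h to -1.13 on the 24 h array against no siRNA, where it had the lowest of all 123 member values. Without that array the gene mean was -0.16 (adjusted p = 0.328). With time and control as terms of the model, PMAIP1 passed (limma adjusted p = 0.0338), as did 29.1% of all rows.

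BCL2L14 had the highest mean of the 8 genes. Its values were 0.37 and 0.33 against control siRNA (8 h and 24 h) and 0.17 and 0.66 against no siRNA (6 h and 24 h). The mean was 0.38 ± 0.20 (SD, n = 4; limma adjusted p = 0.0338). It had 1 complete feature, 36446_1, at 0.44, 0.36, 0.46 and 0.66 (mean 0.48, adjusted p = 0.0132). The other, 37290_1, read 0.30, 0.30 and -0.11 and was empty on the 24 h array against no siRNA, so the highest gene value rests on 36446_1 alone.

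The 3 gene calls stood close to the threshold, and each was lost when any 1 array was left out. Leaving out in turn 8 h and 24 h of the control siRNA arrays, then 6 h and 24 h of the no siRNA arrays, BCL2A1 averaged 0.40, 0.34, 0.40 and 0.25, BCL2L14 0.39, 0.40, 0.45 and 0.29, and BIK 0.41, 0.33, 0.29 and 0.28. Limma's adjusted p then ran from 0.0524 (BIK without 8 h) to 0.143 (BCL2A1 without the 24 h array against no siRNA). Calls over all 6798 rows fell from 1073 to 441, 4, 0 and 234 in the same order. MYC siRNA carried Cy5 on each array (0 dye swaps), so a dye bias of a probe and a response cannot be told apart.

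Time and kind of control changed 0 of the 8 genes past the test. At an adjusted p under 0.05, 0.118% of rows differed between 24 h and the early arrays (0.0883% lower and 0.0294% higher at 24 h) and 0.0883% between the 2 kinds of control. These shares moved with the scaling: 8 rows differed by time and 6 by control, 61 and 87 with centred arrays, and 0 and 0 with scaled arrays, while 0 members were called under each. The largest time difference was that of PMAIP1, -0.40 ± 0.19 (SE), from a mean of -0.08 on the early arrays to -0.48 at 24 h (limma adjusted p = 0.48, unadjusted p = 0.0454). BCL2A1 moved the other way, from 0.19 to 0.50 (difference 0.32 ± 0.19 SE, adjusted p = 0.64), and BCL2L1 from -0.11 to -0.37 (difference -0.26 ± 0.18 SE, adjusted p = 0.7). Of the 28 features, 0 differed by time at an adjusted p under 0.05 (2 at an unadjusted p under 0.05), against 0.728% of all features (0.62% lower and 0.108% higher at 24 h); the smallest adjusted p was 0.0744, for PMAIP1 feature 19236_1 at -0.79 ± 0.21 (SE). By kind of control, differences ran from -0.27 (BCL2L1) to 0.26 (BIK), with adjusted p of at least 0.713 for each gene and 0 genes at an unadjusted p under 0.05. This model left 1 residual degree of freedom, so its standard errors are mostly those pooled over rows.

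Genes whose 4 values were nearest to those of the risen members were found by the root mean square difference over the 4 arrays, among 3953 other named genes. Nearest to BCL2A1 were PEX6 (0.045), GZMH (0.057) and POFUT1 (0.065). BCL2L14 lay nearest to SMIM43 (0.047), DOK1 (0.059) and CDKN2D (0.060), and BIK to MOB3A (0.045), RGS11 (0.047) and COX8A (0.048). The median distance of all genes was 0.42 to 0.47 for these 3 members. With 4 arrays and this many genes, near profiles are a description only.

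Of 10 other measured genes listed with the BCL2 family, 1 rose, BMF, and 0 fell. Over all rows 5.56% rose and 10.2% fell. The list also takes genes by name, such as BNIP2 and BCLAF1, and is wider than the family itself. BMF encodes a BH3-only protein that binds survival members after loss of attachment or other stress. Its values were 0.80 and 0.47 against control siRNA (8 h and 24 h) and 0.49 and 0.49 against no siRNA (6 h and 24 h). Unlike the risen members it was highest on the 8 h array. The mean was 0.56 ± 0.16 (SD, n = 4; limma adjusted p = 0.0168). It did not pass with the 24 h control siRNA array left out (0.59, limma adjusted p = 0.0589) or with the 6 h array left out (0.585, adjusted p = 0.053). In these fits 4 and 0 of all 6798 rows were called, so few rows or none could keep a call.

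The other 9 of the 10 measured genes listed with the family did not pass. The pore protein gene BAK1 averaged 0.22 and was above 0 on all arrays (0.33, 0.08, 0.14 and 0.32), and BOK averaged 0.005. Of BH3-only genes, BAD averaged 0.11 and BBC3, which encodes PUMA, -0.16, below 0 on all arrays (-0.25, -0.17, -0.17 and -0.03). The BNIP genes stood at 0.20 (BNIP1), 0.03 (BNIP2), 0.13 (BNIP3, of mitophagy) and -0.18 (BNIP3L), and BCLAF1 at -0.21. With 1 array left out BNIP1 ran from 0.12 (without the 24 h array against no siRNA) to 0.31 (without the 8 h array) and BNIP3L from -0.25 to -0.10 (without the 6 h array). Limma's adjusted p lay between 0.113 (BAK1) and 0.971 (BOK) for these 9 genes. The median over the 10 was 0.07.

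**Figure D4:**
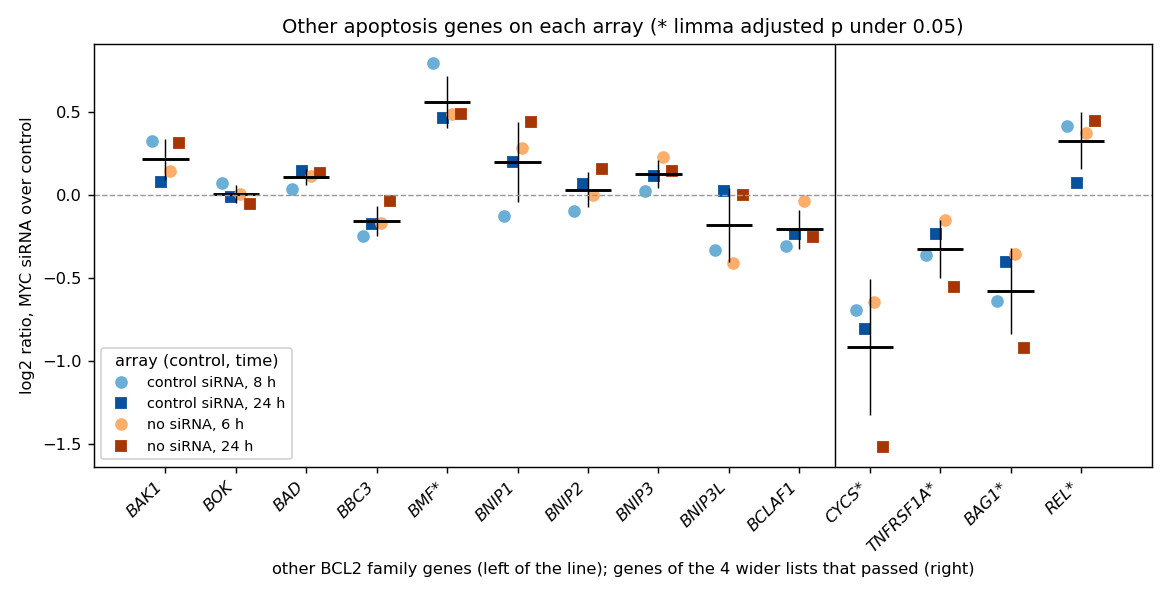
Log2 ratio of MYC siRNA over control (y axis) for 10 other genes listed with the BCL2 family, with values on all arrays (left of the line). Right of it are the genes of 4 wider apoptosis lists that passed. Symbols are as in the plot of the 8 genes, with mean and SD over 4 arrays. BMF lies between 0.47 and 0.80, and CYCS between -1.52 and -0.64.

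Around the family, 3 genes fell, 2 rose and 47 did not pass of 52 measured genes of 5 apoptosis lists, with a median of 0.02. The other genes listed with the family are included. The 5 called were 9.62% of the 52, against 15.8% of all rows. Of 11 effectors and inhibitor of apoptosis genes 1 fell: CYCS, the cytochrome c that BAX and BAK1 release, at -0.69 and -0.81 against control siRNA (8 h and 24 h) and -0.64 and -1.52 against no siRNA (6 h and 24 h). Its mean of -0.92 ± 0.41 (SD, n = 4; limma adjusted p = 0.0146) became -0.95 (adjusted p = 0.0548) with the 24 h control siRNA array left out and -1.01 (adjusted p = 0.053) with the 6 h array left out. Without these arrays 4 and 0 of all 6798 rows were called.

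Among 8 BAG and MCL1 regulators 1 fell. BAG1, a cochaperone of Hsp70 first described as a partner of BCL2, had values of -0.64, -0.40, -0.36 and -0.92 in the same order (mean -0.58 ± 0.26 SD, n = 4; limma adjusted p = 0.0187). Its call was lost when the 24 h control siRNA array was left out (-0.64, adjusted p = 0.0629) and when the 6 h array was (-0.65, adjusted p = 0.053). Those fits called 4 and 0 of all 6798 rows. Of 10 death receptor genes TNFRSF1A, a receptor of TNF, fell (-0.36, -0.23, -0.15 and -0.55; mean -0.32 ± 0.18 SD, n = 4; adjusted p = 0.0473). Of 13 kinases and factors upstream REL, an NF-kappaB subunit known to drive BCL2A1, rose (0.42, 0.07, 0.38 and 0.45; mean 0.33 ± 0.17 SD, n = 4; adjusted p = 0.0452). A link between REL and BCL2A1 in these data was not tested. TNFRSF1A and REL did not pass with any 1 array left out: in the order used above TNFRSF1A averaged -0.31, -0.35, -0.38 and -0.25 and REL 0.30, 0.41, 0.31 and 0.29. With the median of its features in place of the mean, REL stood at 0.27 (adjusted p = 0.126).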

How the data were processed

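The series is a comparison on 4 arrays of 2 channels. Per the labels, 50 ug of Trizol-extracted total RNA per channel was made into labelled cDNA, MYC siRNA with Cy5 and control with Cy3. The values are log2 ratios as deposited by the authors, 1 per feature and array; how these were background-corrected and normalized, which log base and direction they have, and why some cells are empty is not given in the sources. Signal over background is thus unknown, and the number of arrays limits the precision.

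Symbols came from the platform annotation and were updated by Entrez ID through RefSeq (GRCh38.p14, names alone). Features of 1 symbol were averaged per array, and features without a symbol stayed single rows. Rows (6798), single features (10161) and within-array differences of features of 1 symbol (6622 pairs) with values on all 4 arrays were each tested against 0 with limma 3.58.1 (lmFit, eBayes; R 4.3.3), with 3 residual degrees of freedom and Benjamini-Hochberg adjustment over the whole table at 0.05. Time (24 h against 6 h or 8 h) and kind of control were 2 terms of 1 further model. The code was tested on simulated data. The members and gene lists were chosen with earlier results of these data known. Named were all members with each feature, MYC and each other measured gene listed with the BCL2 family. Genes of the 4 wider lists past the threshold and the 3 nearest genes of each member called were also named. The death receptor genes given under the other observations that did not pass fall outside this rule. They were chosen after their values were seen.

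Alternatives were array centring and scaling, leaving out each array, robust eBayes, rows with values on at least 3 arrays, time and control as terms, medians or only complete features, and an exact sign-flip test. Nothing in the labels says that the arrays come from separate cultures. The p-values and SDs therefore speak of array-to-array spread, which may be technical. Each array is also its own pairing of time and control, so this spread holds any differences between these as well. Kind of control goes with 2 ranges of array identifiers and cannot be told apart from them. Because bulk RNA was used, fewer cells with a transcript and less transcript per cell cannot be told apart.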

Additional observations from a re-analysis of the deposited data

Results flagged for a closer look

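Of the 8 genes and 28 complete features, 5 had opposite signs on the arrays of each kind, by control or by time. The share over all rows and features was not counted, so whether 5 is many is unknown. MCL1 and BAX enter both as genes and through features. MCL1 as a gene was below 0 on both arrays against control siRNA and above 0 on both against no siRNA, a difference of 0.198 (limma adjusted p = 0.821). Its features 30494_1 and 30120_1 did the same, with differences of 0.389 and 0.541 (adjusted p = 0.545 and 0.278). Feature 35088_1 of BAX was likewise below 0 against control siRNA and above 0 against no siRNA (difference 0.207, adjusted p = 0.848). BAX as a gene was above 0 on both early arrays and below 0 on both 24 h arrays, by -0.132 (adjusted p = 0.878). None of these 5 differences passed limma's test of the difference, and kind of control goes with the range of array identifiers. No array stood apart from the other 3 in any of these 36 genes and features by Dixon's test, which chance passes in about 1 of 20.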

How the results depend on the processing

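The 3 member genes called (BCL2A1, BCL2L14 and BIK) stayed 3 with centred or scaled arrays, robust eBayes, medians or complete features only, and were 4 with time and control as terms (29.1% of all rows called), 1 when rows with values on at least 3 arrays were tested (12.1% of all rows), and 0 by the exact sign-flip test, whose smallest p is 0.125 with 4 arrays. With 1 array left out they were 0 to 0, while the share called over all rows fell to between 0 and 6.49%. Called member features were 9, and 8 to 10 with centred arrays, scaled arrays or robust eBayes; 15 were called with time and control as terms (33.2% of all features), 4 with values on at least 3 arrays (14.9%), and 0 to 3 with 1 array left out (2.34% to 12.3%). Feature pairs called were 2, 6 with scaled arrays (13.4% of all pairs), 0 with values on at least 3 arrays (0 of all 8344 pairs), and 0 to 0 with 1 array left out (0 of all 6622 pairs). The other apoptosis genes called were 5, 9 with time and control as terms, 3 with values on at least 3 arrays, and 0 to 3 with 1 array left out. These come from the same fits as the member genes, with the shares of all rows given there. Over all rows, time called 61 with centred arrays, 26 with complete features and 0 with scaled arrays against 8, and kind of control 87, 37 and 0 against 6. For time and kind of control 0 members were called under each alternative run; leaving out an array there leaves no residual degrees of freedom and was not run.

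Reversed signs were met by values near 0. BCL2 was -0.013 with the median of features and ran from -0.002 to 0.0504 with 1 array left out, MCL1 from -0.0898 to 0.006, BOK from -0.0183 to 0.0243 and BNIP2 from -0.0075 to 0.076. With scaled arrays the control difference of BCL2L14 was -0.00531 and that of PMAIP1 0.0451. With 1 array left out feature 24367_1 ran from -0.09 to 0.0267, 28859_1 from -0.0377 to 0.112, 30494_1 from -0.115 to 0.0917, 30120_1 from -0.0267 to 0.207 and 35088_1 from -0.0303 to 0.0923. The arrays form 1 group, numbered in order of listing, so the replicate numbers pair no samples. Fewer arrays leave fewer degrees of freedom, so a lost call does not show that it came from 1 array.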

Other observations

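Of the 10 death receptor pathway genes measured, 6 averaged above 0 and none of these 6 passed. Over all 6798 rows, 3368 averaged above 0. TNFSF10, which encodes the death ligand TRAIL, had 0.85 (8 h) and 0.78 (24 h) against control siRNA but 0.10 (6 h) and 0.09 (24 h) against no siRNA, so that its mean of 0.45 ± 0.42 (SD, n = 4; limma adjusted p = 0.0585) rests on the arrays against control siRNA. CASP10, an initiator caspase, averaged 0.31 ± 0.19 (SD, n = 4; adjusted p = 0.0596). CFLAR, the inhibitor cFLIP, was at 0.22, FADD, the adaptor, at 0.22 and CASP8 at 0.20. TNFRSF10B, the last of the 6, was at 0.0006. Below 0 were TNFRSF1A (-0.32, the 1 gene of the 10 that passed), FASLG (-0.15), FAS (-0.09) and DAXX (-0.08). These values are given because they lie on the same pathway, and were singled out after they were seen.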
